A study of Homo sapiens with 16 samples.

Results

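The 9 genes described here belong to sterol and fatty acid metabolism and were followed through a drug and a knockdown experiment in AsPC-1 cells. They are INSIG1, SQLE, DHCR7, STARD4, TM7SF2, ABCA1, SCD, ACSL1 and ACSL4. Every probe set annotated to 1 of these genes and to no other gene was taken, which gave 14 of the 9554 probe sets of the deposited table, for 9 of the 5250 genes that it names. INSIG1, ABCA1 and ACSL4 were each read by 2 probe sets, SCD by 3, and the other genes by 1. The genes had been picked with their changes on these same arrays in view, so the tests below describe where each probe set stood in a fit over the whole table and are not independent evidence.

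AsPC-1 is an established human line from pancreatic adenocarcinoma. By the labels all groups were this 1 line in RPMI medium with fetal calf serum. In the drug experiment, 3 arrays each were made from cells given 10 µM ICG-001 for 6 h, DMSO for 6 h, 10 µM ICG-001 for 24 h and DMSO for 24 h. ICG-001 is a small molecule known as an inhibitor of the interaction between β-catenin and the coactivator CBP, and DMSO was its vehicle. In the knockdown experiment, 2 arrays each were made 48 h after lipofection of 20 nM siRNA against CTNNB1, the β-catenin gene, or 20 nM control siRNA. CTNNB1 itself was not analysed here, so the extent of the knockdown is not known. The arrays of a group are named biological replicates, with no word on separate cultures. The p-values measure the spread between these samples, pooled over all 6 groups, so those of the knockdown rest mostly on the spread among drug arrays. As all of this is bulk RNA, fewer cells of a type and less RNA per cell cannot be told apart.

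Cells hold their sterol level through a feedback in the endoplasmic reticulum. When sterol is scarce, the SREBP transcription factors are carried to the Golgi and released, and they raise the genes of sterol and unsaturated fatty acid synthesis, while INSIG proteins retain them when sterol is plentiful. Surplus sterol gives rise to oxysterols, which activate the LXR nuclear receptors, and these raise the exporters ABCA1 and ABCG1 together with SREBF1, the gene of SREBP-1. Fatty acids are desaturated by SCD and must be joined to coenzyme A by ACSL enzymes before they enter lipids or are burned.

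The values are array intensities on a linear scale. They are printed as deposited, whereas changes are log2 differences after 16 was added to each intensity and the 16 arrays were quantile normalized, with limma's SE and a Benjamini-Hochberg adjusted p over all 9554 probe sets. A probe set rose or fell where that adjusted p was under 0.05. The scaling matters here because 8 of the 14 probe sets were among the 956 brightest of the table. Those 956 had a median ICG-001 change of -0.13 (6 h) and -0.08 (24 h) once quantile normalized, but of 0.12 and 0.22 as deposited. Over all probe sets the 24 h median was -0.01, or 0.10 as deposited. Deposited-scaling values are therefore given wherever they end a call, turn its sign or move its size by more than 1.5 times.

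The knockdown arrays stood apart from the drug arrays. Mean intensity was 163.7 to 178.9 on ICG-001 arrays, 131.7 to 136.8 on DMSO arrays and 105.5 to 109.6 on siRNA arrays. Of the 15 epithelial markers listed, 5 genes were measured, and their summed intensity was 5410 to 5770 with ICG-001 and 4250 to 4450 with DMSO at 6 h, 6020 to 6240 with ICG-001 and 4680 to 5430 with DMSO at 24 h, and 1570 to 1580 with CTNNB1 siRNA and 1960 to 2040 with control siRNA. Among them, E-cadherin (CDH1) averaged 290 to 355 in the drug groups but 15.9 with CTNNB1 siRNA and 10.5 with control siRNA. Keratin 19 (KRT19) averaged 80.6 to 104 in the drug groups but 10.2 with CTNNB1 siRNA and 11.8 with control siRNA. Of 11 leukocyte markers 2 genes were measured, with sums of 37.5 to 68.7, and of 9 endothelial markers 3 genes, with sums of 20.8 to 75.5. Of 11 fibroblast markers 6 genes were measured, with sums of 204 to 514. Of 12 acinar markers 2 were measured, summing to 8340 to 14700 on drug arrays and 2290 to 3020 on siRNA arrays, nearly all from trypsinogen PRSS2, and none of 10 islet markers was measured. Among 8 hepatocyte markers 4 were measured, with sums of 372 to 619 on drug arrays and 48.8 to 87.1 on siRNA arrays. The epithelial sums hide members that went other ways. CLDN7, a tight junction protein, averaged 3470 with ICG-001 and 1820 with DMSO at 24 h, while keratin 7 (KRT7, 209016_s_at) averaged 718 with ICG-001 and 1470 with DMSO. In the knockdown that KRT7 probe set averaged 252 with CTNNB1 siRNA and 92.2 with control siRNA, against the direction of the sum. CLDN7 averaged 1010 with CTNNB1 siRNA and 1540 with control siRNA, and so made up most of the epithelial sums there. The part of any of these in the changes below was not tested.

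Of the 14 probe sets, 12 were brighter on average on the siRNA arrays than on the drug arrays, against 30.1% of the whole table. Both INSIG1 probe sets, SQLE, DHCR7, ABCA1 203504_s_at, all SCD probe sets, ACSL1 and ACSL4 202422_s_at read higher on each of the 4 siRNA arrays than on any of the 12 drug arrays. TM7SF2 did the opposite, with 46.7 on average on siRNA arrays and 222 on drug arrays. The experiment, the 48 h time, the transfection and any difference in the state or identity of the cells cannot be told apart in these contrasts. No test was made of them. The labels name no array run, so a difference between runs could not be checked either. Every probe set of the table varied over the 16 arrays with a coefficient of variation of at least 0.40. For 11 of the 14 it was under 0.40 on the 12 drug arrays alone, so their place in the table rested on the siRNA arrays.

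**Figure D1:**
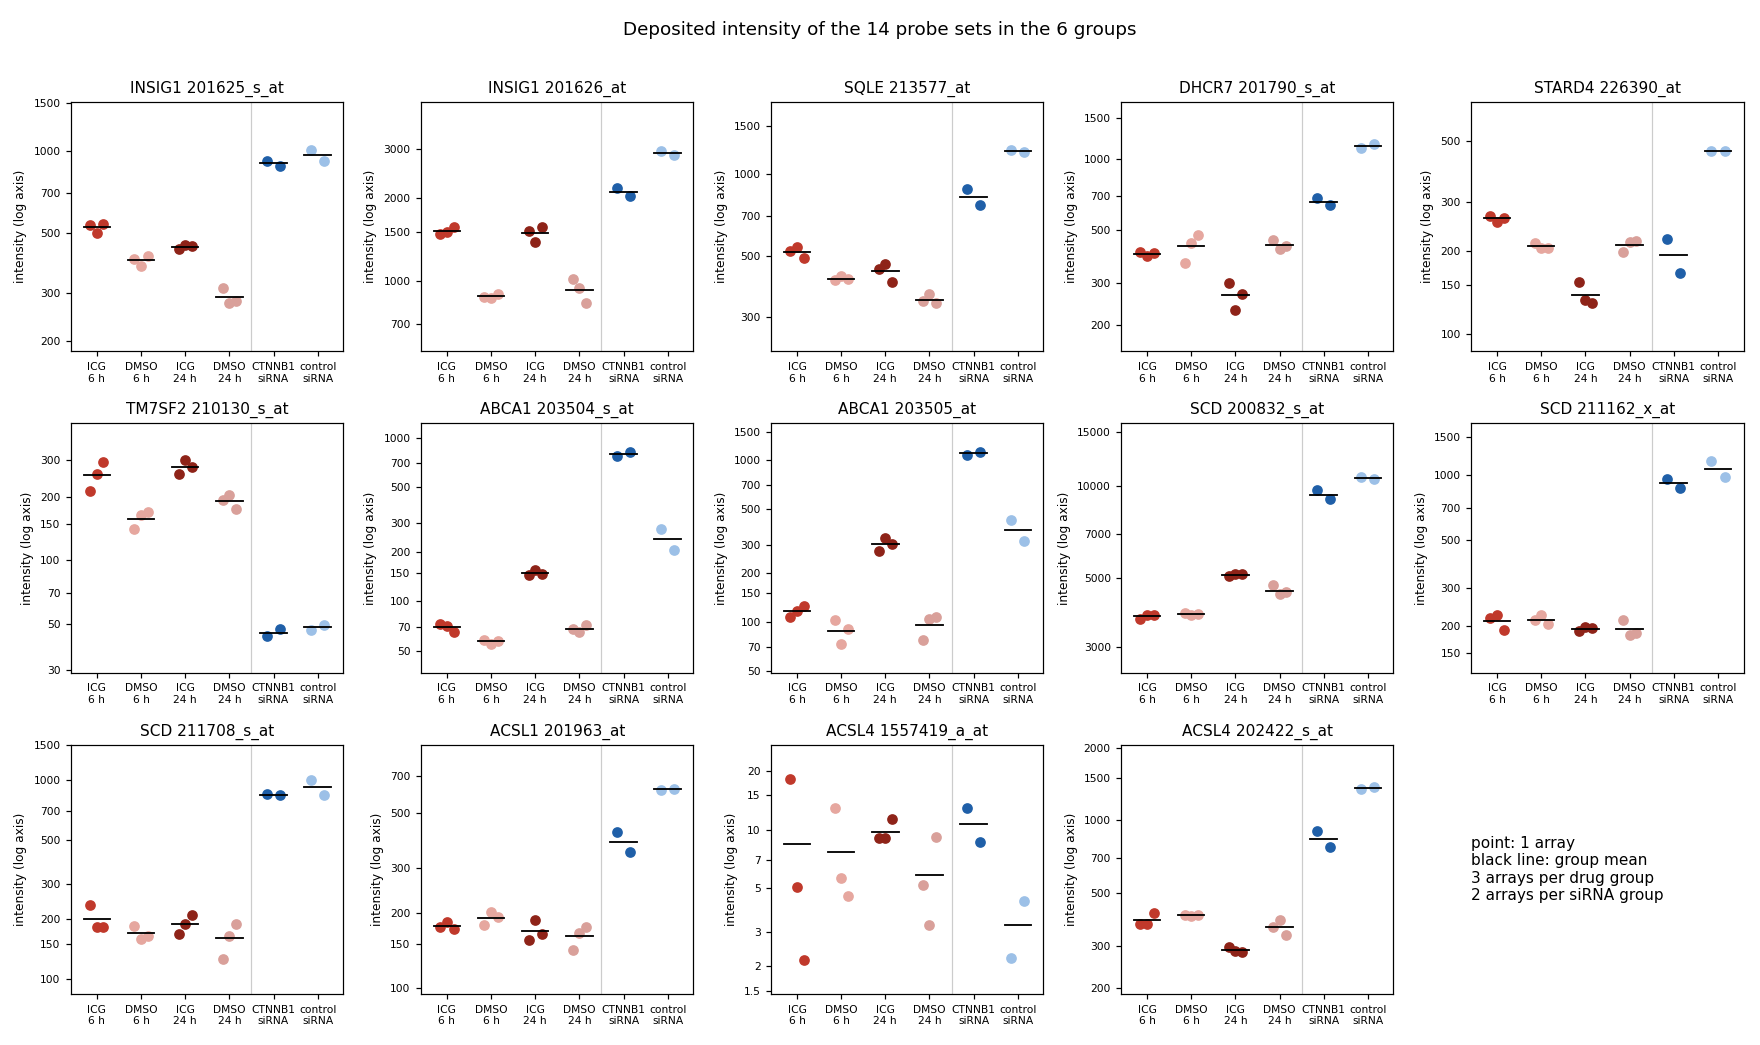
Deposited intensity (log axis) of each of the 14 probe sets on every array, 1 panel per probe set, with ICG-001 left of DMSO at each time and CTNNB1 siRNA left of control siRNA. Points are single arrays and black lines are group means of 3 arrays (drug) or 2 arrays (siRNA). ABCA1 stood highest with CTNNB1 siRNA, TM7SF2 lowest on all siRNA arrays, and the dim ACSL4 probe set 1557419_a_at scattered over its whole range among the ICG-001 arrays at 6 h.

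The treatments moved the 9 genes in different patterns. With ICG-001 at 6 h, 2 of the 14 probe sets rose and 1 fell, in a table of which 9.99% were called, 4.53% as risen and 5.45% as fallen. At 24 h, 5 rose and 4 fell, in a table with 15.7% called, 7.88% risen and 7.82% fallen. With CTNNB1 siRNA, 2 rose and 6 fell, in a table with 9.25% called, 4.5% risen and 4.75% fallen. In the deposited scaling the counts were 5 risen and 0 fallen at 6 h (9.34% of the table called), 7 and 3 at 24 h (17.4%), and 2 and 6 with CTNNB1 siRNA (6.46%). As deposited, the arrays of the 2 groups did not overlap for 8 of the 14 at 6 h, 10 at 24 h and 12 in the knockdown, where 22.9%, 29.3% and 42.0% of the table did not. ABCA1, the exporter, rose and DHCR7, STARD4 and ACSL4, from synthesis, transfer and activation, fell with ICG-001 at 24 h as well as with CTNNB1 siRNA, in both scalings. INSIG1 and SQLE had positive values with the drug and negative values with the siRNA, though not all passed the test. Nothing is read from these counts against the table, since the genes were chosen on these contrasts.

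**Figure D2:**
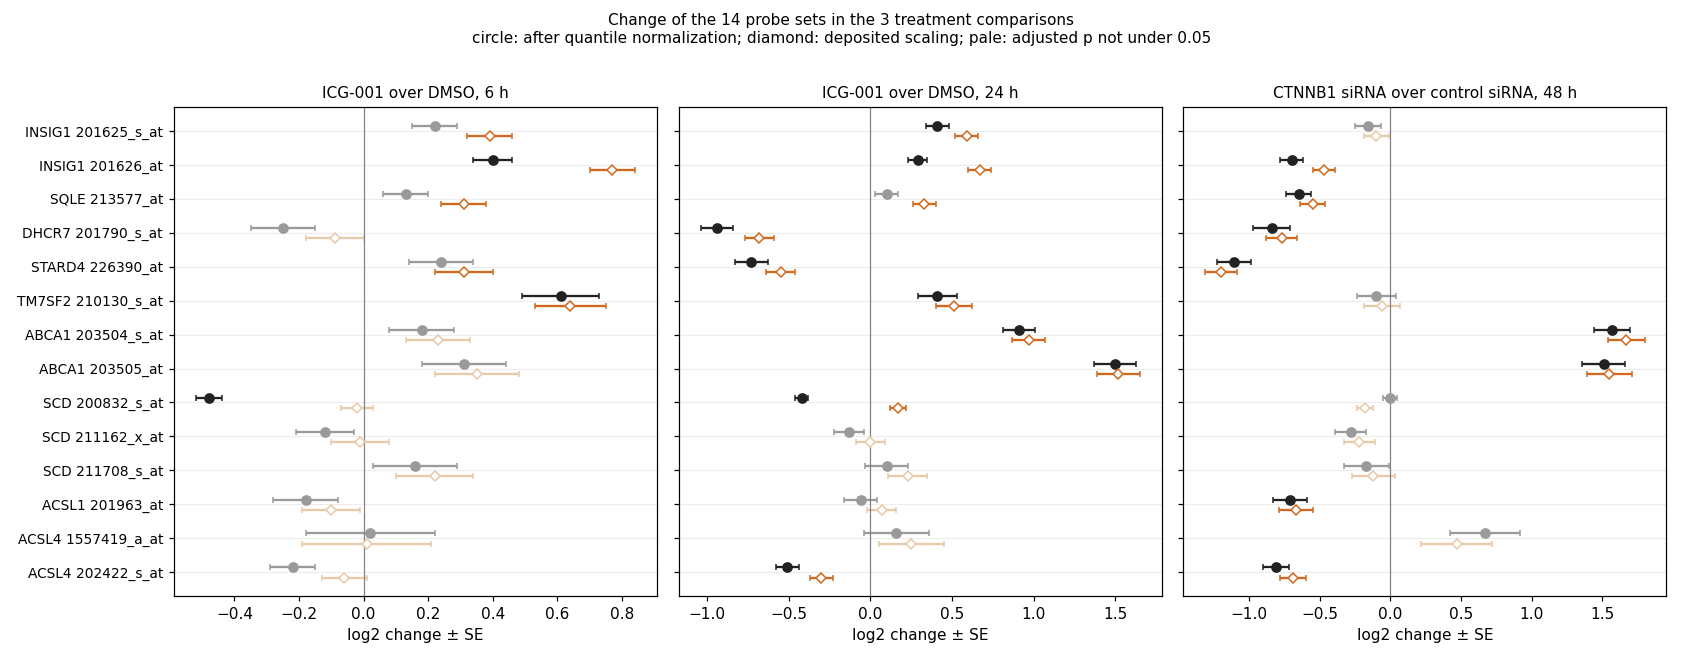
Log2 change ± SE of the 14 probe sets with ICG-001 at 6 h, with ICG-001 at 24 h and with CTNNB1 siRNA, each over its control. Circles are values after quantile normalization, diamonds the deposited scaling, and pale symbols have an adjusted p not under 0.05. ABCA1 lies right and DHCR7, STARD4 and ACSL4 202422_s_at lie left of 0 in the panels for 24 h and siRNA, and SCD 200832_s_at at 24 h changes side between the scalings. Its normalized siRNA change is 0 by construction.

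Promoter sequences are shown for the exporter ABCA1, for the sterol sensor INSIG1 and for DHCR7 and STARD4, since the drug effect on ABCA1, DHCR7 and STARD4 differed between the times and INSIG1 differed most between drug and siRNA. Each is the 250 bases before a transcription start, from RefSeq on GRCh38.p14, written 5′ to 3′ along the gene. DHCR7 had 2 such windows, and the one shown was picked because it holds CCAAT. Its other window held none of the motifs searched. Capitals mark matches to a loose pattern of the direct repeat bound by LXR and to the E-box CACGTG bound by USF and SREBP. They also mark the CCAAT box bound by NF-Y, a factor that acts beside SREBP. ABCA1 lies on the minus strand at chr9:104928156-104928405, INSIG1 on the plus strand at chr7:155297628-155297877, STARD4 on the minus strand at chr5:111512536-111512785 and DHCR7 on the minus strand at chr11:71448394-71448643.
ABCA1: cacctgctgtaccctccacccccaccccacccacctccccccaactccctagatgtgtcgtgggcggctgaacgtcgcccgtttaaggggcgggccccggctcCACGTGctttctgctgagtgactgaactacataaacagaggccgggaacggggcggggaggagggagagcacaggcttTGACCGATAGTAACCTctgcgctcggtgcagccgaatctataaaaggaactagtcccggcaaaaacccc
INSIG1: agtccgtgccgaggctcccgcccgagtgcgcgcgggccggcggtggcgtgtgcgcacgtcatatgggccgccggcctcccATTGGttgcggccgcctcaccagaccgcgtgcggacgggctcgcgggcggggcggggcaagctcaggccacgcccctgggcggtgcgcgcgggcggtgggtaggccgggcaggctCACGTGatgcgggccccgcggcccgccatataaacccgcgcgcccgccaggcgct
STARD4: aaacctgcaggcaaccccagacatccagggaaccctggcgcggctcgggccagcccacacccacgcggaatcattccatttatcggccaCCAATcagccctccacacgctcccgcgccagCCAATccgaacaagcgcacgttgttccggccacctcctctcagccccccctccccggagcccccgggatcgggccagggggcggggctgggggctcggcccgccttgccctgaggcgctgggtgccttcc
DHCR7: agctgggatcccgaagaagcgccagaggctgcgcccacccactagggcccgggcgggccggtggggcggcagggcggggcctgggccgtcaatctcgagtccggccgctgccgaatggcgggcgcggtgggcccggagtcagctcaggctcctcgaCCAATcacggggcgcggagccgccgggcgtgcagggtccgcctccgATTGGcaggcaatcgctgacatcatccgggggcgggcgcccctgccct

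The LXR repeat was found in 1 of the members' windows, that of ABCA1, as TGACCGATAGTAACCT on the strand opposite to the gene, from base -69 to base -54. It was present in 0.53% of the 35116 RefSeq windows of this length. CACGTG, which reads the same on both strands, stood at -147 in ABCA1 and at -55 in INSIG1, and in 6.34% of all windows. CCAAT on either strand was found at 2 places in STARD4, SCD and 1 of the 2 windows of DHCR7. It stood at 1 place in INSIG1, TM7SF2 and a window of ACSL1, and in 32.0% of all windows. The sterol element of the LDL receptor gene was found in no member window and in 0.0342% of all, and its shorter core TCACNCCAC, which overlaps it, in 1 window of ACSL1 and in 0.883% of all. GGGCGG, the Sp1 box, is shared by 42.6% of windows. All motifs were searched on both strands, in 13 windows of 8 members. These are matches of letters and describe the windows only.

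INSIG1, which holds the SREBP carrier in the endoplasmic reticulum and is itself raised by SREBP, was higher with ICG-001 at both times and lower with CTNNB1 siRNA at 1 of its probe sets. Probe set 201626_at read 1478, 1503 and 1562 on ICG-001 arrays at 6 h, against 875, 864 and 899 on DMSO arrays. At 24 h it read 1519.7, 1385 and 1561 with ICG-001, against 1014, 939 and 834 with DMSO. All ICG-001 arrays lay above all DMSO arrays at both times. It rose by 0.40 ± 0.06 (adjusted p = 0.0001) at 6 h and 0.29 ± 0.06 (adjusted p = 0.00249) at 24 h, and the deposited scaling gave the larger sizes of 0.77 (adjusted p = 1.41e-08) and 0.67 (adjusted p = 7.3e-08). Without the intensity trend in limma's prior, the 24 h call was lost (adjusted p = 0.0751).

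The other INSIG1 probe set, 201625_s_at, read 537, 499 and 537 with ICG-001 at 6 h, against 402, 378 and 412 with DMSO. At 24 h its values were 436, 452 and 448 with ICG-001, against 314, 275 and 280.5 with DMSO. The groups did not overlap at either time, and the 24 h levels were below the 6 h levels in drug and vehicle alike. The change at 6 h was 0.22 ± 0.07 (adjusted p = 0.0682), past the test in the deposited scaling at 0.39 (adjusted p = 0.000396), and the rise at 24 h was 0.41 ± 0.07 (adjusted p = 0.000268).

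With CTNNB1 siRNA, INSIG1 201626_at read 2165 and 2034, against 2959 and 2865 with control siRNA. It fell by 0.70 ± 0.08 on the log2 scale (adjusted p = 4.5e-06), which was, as deposited, -0.47 (adjusted p = 0.000568). For 201625_s_at the values were 919.7 and 884 with CTNNB1 siRNA, against 1013 and 923 with control siRNA, and the change of -0.16 ± 0.09 (adjusted p = 0.328) was not past the test. The 2 probe sets thus differed in size in the knockdown, with no overlap between groups at either.

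SQLE, the squalene epoxidase and an early oxygen-using step of sterol synthesis, was lower with CTNNB1 siRNA, while its difference with ICG-001 depended on the scaling. At 6 h it read 524, 541 and 492 with ICG-001, against 408, 421 and 412 with DMSO, and at 24 h 448, 468 and 402 with ICG-001, against 342, 362 and 336 with DMSO. Both times the drug arrays lay above the vehicle arrays as deposited. The change was 0.13 ± 0.07 (adjusted p = 0.471) at 6 h and 0.10 ± 0.07 (adjusted p = 0.48) at 24 h after quantile normalization, neither past the test, but as deposited 0.31 (adjusted p = 0.00452) and 0.33 (adjusted p = 0.00198). In the knockdown SQLE read 880.1 and 767 with CTNNB1 siRNA, against 1223 and 1205 with control siRNA. It fell by 0.65 ± 0.09 on the log2 scale (adjusted p = 3.36e-05), with both CTNNB1 siRNA arrays below both controls.

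DHCR7 makes the final reduction to cholesterol in one branch of the pathway. Its 6 h values were 405, 390.3 and 402 with ICG-001, against 363, 444 and 478 with DMSO, and these overlapped. At 24 h it read 299.8, 231 and 269 with ICG-001, against 455, 416 and 430.2 with DMSO, with no overlap. The change was -0.25 ± 0.10 (adjusted p = 0.205) at 6 h, as deposited -0.09 (adjusted p = 0.806), and the change at 24 h, past the test, was -0.94 ± 0.10 (adjusted p = 7.03e-07). Without DMSO 6 h replicate 1, the lowest of its group, the 6 h change was -0.38 (adjusted p = 0.0167). CTNNB1 siRNA gave 682 and 642, against 1112 and 1164 with control siRNA, a change of -0.84 ± 0.13 (adjusted p = 0.000166) with no overlap.

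TM7SF2, a sterol reductase acting after the demethylation of lanosterol, was higher with ICG-001 and dim in the knockdown experiment. It read 215, 258 and 296 with ICG-001 at 6 h, against 141, 164 and 169 with DMSO. The 24 h values were 259.8, 300.5 and 279.8 with ICG-001, against 193, 205 and 177 with DMSO. The groups did not overlap at either time, though the ICG-001 arrays at 6 h were widely spread. It rose by 0.61 ± 0.12 (adjusted p = 0.000925) at 6 h and 0.41 ± 0.12 (adjusted p = 0.0186) at 24 h. The 24 h call ended without ICG-001 replicate 2 (0.37, adjusted p = 0.089), without ICG-001 replicate 3 (0.41, adjusted p = 0.0562), without DMSO replicate 3 (0.35, adjusted p = 0.0859) and without the intensity trend (adjusted p = 0.0505). With CTNNB1 siRNA TM7SF2 read 43.8 and 46.9, against 46.8 and 49.4 with control siRNA, a change of -0.10 ± 0.14 (adjusted p = 0.781) with overlapping arrays.

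STARD4, a soluble carrier that moves sterol between membranes and is a known SREBP target, differed in sign between the times. At 6 h it read 268, 255 and 263 with ICG-001, against 213, 204 and 205 with DMSO, all drug arrays above all vehicle arrays. At 24 h it read 153, 133 and 129.5 with ICG-001, against 198, 214 and 217 with DMSO, all drug arrays below. The 6 h change was 0.24 ± 0.10 (adjusted p = 0.189), past the test in the deposited scaling at 0.31 (adjusted p = 0.0359), and at 24 h STARD4 fell by 0.73 ± 0.10 on the log2 scale (adjusted p = 7e-06). The vehicle arrays differed between the times by -0.03 ± 0.10 (adjusted p = 0.969) and the drug arrays by -0.99 ± 0.10 (adjusted p = 1.94e-07). In the knockdown it read 219 and 166 with CTNNB1 siRNA, against 461 and 461 with control siRNA. It fell by 1.11 ± 0.12 on the log2 scale (adjusted p = 2.53e-06), and the arrays with CTNNB1 siRNA were farther from each other than the control arrays.

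ABCA1 passes cholesterol and phospholipid to apolipoprotein A-I and is the exporter whose promoter above holds the match to the loose LXR pattern. Probe set 203505_at read 108, 117 and 125 with ICG-001 at 6 h, against 102, 72.7 and 89.9 with DMSO. The 24 h values were 276, 330.3 and 304 with ICG-001, against 76.7, 104 and 107 with DMSO. The 24 h drug arrays were all far above the other drug and vehicle arrays, and at 6 h the groups lay close without overlapping. The change was 0.31 ± 0.13 (adjusted p = 0.171) at 6 h and the rise at 24 h 1.50 ± 0.13 (adjusted p = 1.08e-08).

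The second ABCA1 probe set, 203504_s_at, read 72.9, 71.0 and 64.6 with ICG-001 at 6 h, against 58.4, 55.0 and 57.3 with DMSO. The 24 h values were 144, 155 and 147 with ICG-001, against 67.8, 65.0 and 71.8 with DMSO. It changed by 0.18 ± 0.10 (adjusted p = 0.49) at 6 h and rose by 0.91 ± 0.10 (adjusted p = 7.95e-07) at 24 h, a smaller size than at 203505_at. With 1 in place of 16 added before log2, which moves dim values more, both 24 h calls held.

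ABCA1 was higher with CTNNB1 siRNA as well. Probe set 203505_at read 1086 and 1131 with CTNNB1 siRNA, against 427 and 316 with control siRNA, a rise of 1.51 ± 0.15 (adjusted p = 1.39e-06). For 203504_s_at the values were 774 and 817 with CTNNB1 siRNA, against 276 and 206 with control siRNA, a rise of 1.57 ± 0.13 (adjusted p = 6.57e-08). The control arrays differed more from each other than the CTNNB1 siRNA arrays did, and the groups did not overlap. By deposited level the CTNNB1 siRNA arrays came first at both probe sets. At 203505_at the next groups, control siRNA and ICG-001 at 24 h, overlapped, as did the DMSO groups of both times at the low end.

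SCD puts the double bond into stearate and palmitate. Its brightest probe set, 200832_s_at, read 3701, 3798 and 3806 with ICG-001 at 6 h, against 3852, 3813 and 3817 with DMSO. The 24 h values were 5086, 5155 and 5161 with ICG-001, against 4743, 4441 and 4518 with DMSO. As deposited, the drug arrays at 6 h lay just below the vehicle arrays and at 24 h all above them. After quantile normalization the change was -0.48 ± 0.04 (adjusted p = 7.65e-08) at 6 h and -0.42 ± 0.04 (adjusted p = 3.37e-07) at 24 h, both past the test, but in the deposited scaling -0.02 (adjusted p = 0.931) at 6 h and 0.17 (adjusted p = 0.0116) at 24 h. The 2 scalings thus called opposite directions at 24 h, while median centring of the arrays gave 0.04 (adjusted p = 0.751), so no direction is given for SCD with ICG-001.

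The other SCD probe sets were not past the test in any of the 3 treatment comparisons, in either scaling. Probe set 211162_x_at, of a type that may also bind related transcripts, read 189, 198 and 196 with ICG-001 at 24 h, against 214, 182 and 186 with DMSO, a change of -0.13 ± 0.09 (adjusted p = 0.432). Probe set 211708_s_at read 168, 190.2 and 210.5 with ICG-001 at 24 h, against 126, 166 and 191 with DMSO, a change of 0.10 ± 0.13 (adjusted p = 0.762). At 6 h their changes were -0.12 ± 0.09 (adjusted p = 0.711) and 0.16 ± 0.13 (adjusted p = 0.749). In these probe sets the 24 h groups overlapped.

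With CTNNB1 siRNA, SCD 200832_s_at read 9677 and 9039, against 10665 and 10541 with control siRNA. It was the brightest probe set of the table, at rank 1, on all 4 siRNA arrays, and quantile normalization gives rank 1 the same value on every array. The normalized change of 0.00 was therefore fixed by the method and measures nothing. As deposited the change was -0.18 (adjusted p = 0.0644), with both CTNNB1 siRNA arrays below both controls. Probe sets 211162_x_at and 211708_s_at changed by -0.28 ± 0.11 (adjusted p = 0.123) and -0.17 ± 0.16 (adjusted p = 0.621). None of these passed the test.

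ACSL1, which activates long-chain fatty acids, was lower with CTNNB1 siRNA and did not pass the test with ICG-001. It read 418 and 350.1 with CTNNB1 siRNA, against 617 and 622 with control siRNA, a change of -0.71 ± 0.12 (adjusted p = 0.000545). At 6 h it read 175, 184 and 172 with ICG-001, against 179, 202 and 191 with DMSO, a change of -0.18 ± 0.10 (adjusted p = 0.458). The 24 h values of 156, 188 and 164 with ICG-001 overlapped the DMSO values of 142, 165 and 176. That change was -0.06 ± 0.10 (adjusted p = 0.81) with a 95% interval of -0.27 to 0.14, and its sign turned to 0.07 in the deposited scaling.

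ACSL4, which prefers arachidonate and other polyunsaturated fatty acids, was lower with ICG-001 at 24 h and with CTNNB1 siRNA. Probe set 202422_s_at read 297, 284 and 283 with ICG-001 at 24 h, against 357, 384 and 332 with DMSO. It fell by 0.51 ± 0.07 on the log2 scale (adjusted p = 2.72e-05), as deposited -0.30 (adjusted p = 0.00564), with no overlap between the groups. At 6 h it read 371, 371 and 411 with ICG-001, against 403, 399.6 and 402 with DMSO, a change of -0.22 ± 0.07 (adjusted p = 0.0731) that shrank to -0.06 (adjusted p = 0.835) as deposited. Without ICG-001 6 h replicate 3, the highest of its group, it passed the test at -0.28 (adjusted p = 0.041).

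In the knockdown ACSL4 202422_s_at read 901 and 776 with CTNNB1 siRNA, against 1348 and 1379.5 with control siRNA, and fell by 0.81 ± 0.09 on the log2 scale (adjusted p = 5.23e-06). The dim ACSL4 probe set, 1557419_a_at, read 12.8 and 8.63 with CTNNB1 siRNA, against 2.19 and 4.33 with control siRNA, a change of 0.67 ± 0.25 (adjusted p = 0.11). It lay below the 16 added before log2 on all but 1 array, and its values on the 3 ICG-001 arrays at 6 h were 18.1, 5.09 and 2.16. This probe set was not past the test in any comparison and gives no direction for ACSL4.

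The effect of ICG-001 at 24 h differed from that at 6 h for 4 of the 14 probe sets, in a table with 5.62% called, 2.89% upward and 2.73% downward. Both ABCA1 probe sets had the larger effect at 24 h, by 0.74 ± 0.15 (adjusted p = 0.0029) for 203504_s_at and 1.19 ± 0.18 (adjusted p = 0.00016) for 203505_at. STARD4 and DHCR7 had the lower effect at 24 h, with differences of -0.96 ± 0.14 (adjusted p = 9.38e-05) and -0.69 ± 0.15 (adjusted p = 0.00555). For DHCR7 the call was lost without the intensity trend (adjusted p = 0.0618). For INSIG1 the difference between the times was 0.19 ± 0.10 (adjusted p = 0.51) at 201625_s_at and -0.12 ± 0.09 (adjusted p = 0.716) at 201626_at, and for SQLE it was -0.03 ± 0.10 (adjusted p = 0.972) with a 95% interval of -0.23 to 0.18. Neither gene's effect was shown to differ between 6 h and 24 h, nor were those of TM7SF2 at -0.20 ± 0.17 (adjusted p = 0.765) and ACSL4 202422_s_at at -0.28 ± 0.11 (adjusted p = 0.176).

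Within the arms, some of the genes differed between the times. On DMSO arrays 3 of the 14 probe sets differed between 24 h and 6 h, in a table with 6.13% called, 3.43% risen and 2.7% fallen. These were INSIG1 201625_s_at, which fell by 0.52 ± 0.07 on the log2 scale (adjusted p = 6.54e-05), SQLE, which fell by 0.31 ± 0.07 on the log2 scale (adjusted p = 0.00836), and SCD 200832_s_at, which rose by 0.26 ± 0.04 (adjusted p = 0.000446). The SQLE and SCD calls were lost without the intensity trend (adjusted p = 0.115 and 0.157). On ICG-001 arrays 3 rose and 5 fell, in a table with 13.2% called, 6.97% risen and 6.2% fallen. Those that rose were both ABCA1 probe sets and SCD 200832_s_at at 0.33 ± 0.04 (adjusted p = 1.36e-05), and those that fell were STARD4 at -0.99 ± 0.10 (adjusted p = 1.94e-07), DHCR7 at -0.68 ± 0.10 (adjusted p = 6.87e-05), ACSL4 202422_s_at at -0.50 ± 0.07 (adjusted p = 4.73e-05), SQLE at -0.33 ± 0.07 (adjusted p = 0.00195) and INSIG1 201625_s_at at -0.33 ± 0.07 (adjusted p = 0.00313). These comparisons share arrays with those of the drug effect.

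The effect of ICG-001 at 24 h was set against that of CTNNB1 siRNA, which share no arrays but differ in time, method and experiment. The difference passed the test for 6 of the 14 probe sets, in a table with 12.7% called, 6.43% upward and 6.27% downward. INSIG1 was higher with the drug than with the siRNA, by 0.57 ± 0.12 (adjusted p = 0.00173) at 201625_s_at and 0.99 ± 0.10 (adjusted p = 5.99e-07) at 201626_at. SQLE and ACSL1 differed the same way, by 0.75 ± 0.11 (adjusted p = 5.75e-05) and 0.65 ± 0.16 (adjusted p = 0.00697). ABCA1 203504_s_at rose less with the drug, with a difference of -0.65 ± 0.16 (adjusted p = 0.00969), while 203505_at differed by -0.01 ± 0.20 (adjusted p = 0.986) with a 95% interval of -0.43 to 0.41. For SCD 200832_s_at the difference was -0.42 ± 0.07 (adjusted p = 0.000231), as deposited 0.35 (adjusted p = 0.00179), so its direction is not settled. The first of these carries the siRNA effect that normalization fixed at 0.

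Some of these differences rested on single arrays. The ABCA1 203504_s_at difference lost its call with 1 added before log2 (-0.52, adjusted p = 0.103) and without replicate 2 of the siRNA groups, at -0.59 (adjusted p = 0.0533) when the CTNNB1 siRNA array was dropped and -0.50 (adjusted p = 0.0638) when the control siRNA array was. The ACSL1 difference lost it without CTNNB1 siRNA replicate 2 (0.54, adjusted p = 0.0525). DHCR7 differed between the treatments by -0.10 ± 0.17 (adjusted p = 0.802) with a 95% interval of -0.44 to 0.25, and STARD4 by 0.38 ± 0.15 (adjusted p = 0.128), which was, as deposited, 0.65 (adjusted p = 0.00378). ACSL4 202422_s_at differed by 0.30 ± 0.12 (adjusted p = 0.119) and TM7SF2 by 0.51 ± 0.19 (adjusted p = 0.0871), and both passed the test as deposited, at 0.40 (adjusted p = 0.0282) and 0.58 (adjusted p = 0.0339). Past the test as deposited were 8 positive differences and 1 negative one, in a table with 11.1% called.

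**Figure D3:**
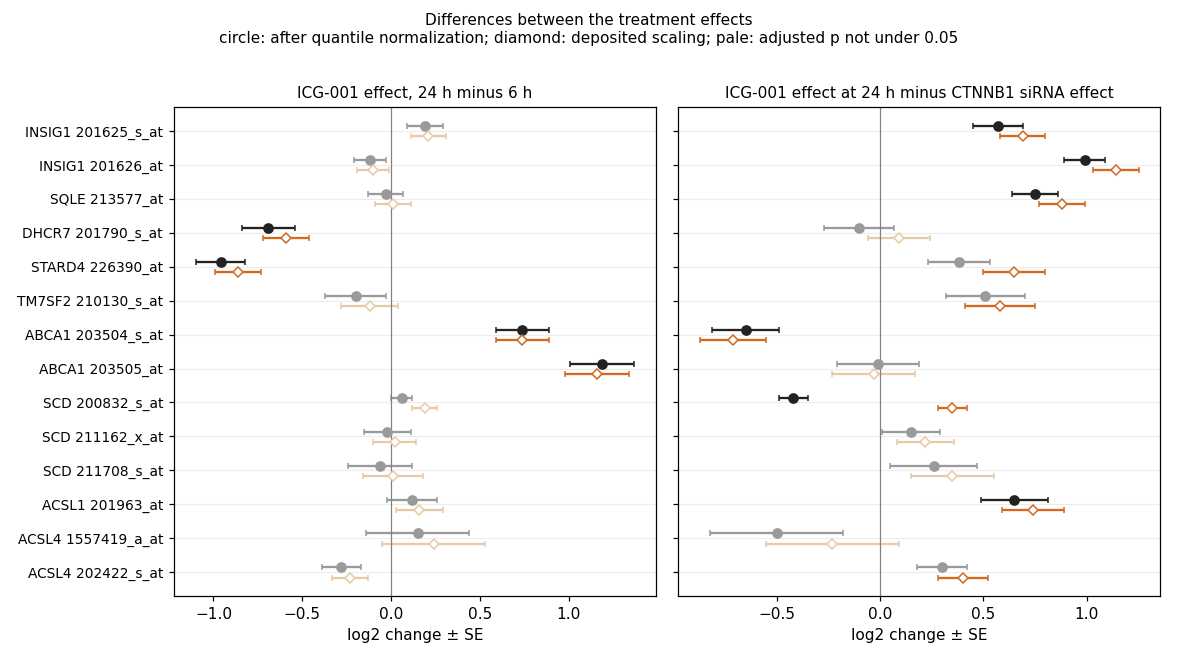
Log2 difference ± SE between treatment effects for the 14 probe sets, with the ICG-001 effect at 24 h minus that at 6 h on the left and the ICG-001 effect at 24 h minus the CTNNB1 siRNA effect on the right. Circles are values after quantile normalization, diamonds the deposited scaling, and pale symbols have an adjusted p not under 0.05. ABCA1, DHCR7 and STARD4 stand off 0 on the left, and INSIG1, SQLE and ACSL1 on the right.

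The genes most like each member were found by Pearson's r over the 16 normalized arrays. The r is a description only, since all probe sets share the arrays, their scaling and the gap between the experiments. SREBF1 was nearest to INSIG1 201626_at (r = 0.978), followed by PDE5A (0.973) and SQLE (0.965). SQLE and ACSL1 were each other's nearest genes (0.983), and DHCR7 was nearest to STARD4 (0.913). For DHCR7 itself DCLRE1A came first (0.983). STC1 was nearest to ABCA1 203505_at (0.98), CREBRF to TM7SF2 (0.972), NFIC to SCD 200832_s_at (0.99) and SZRD1 to ACSL4 202422_s_at (0.988), with FADS2 next at 0.983.

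The rest of lipid metabolism was read from 8 lists with 186 other genes, of which 43 were measured by 55 probe sets. With ICG-001 at 6 h 10 of the 55 rose and 6 fell, or 29.1%, beside the 9.99% of the table. At 24 h 9 rose and 11 fell, or 36.4% beside 15.7%, and with CTNNB1 siRNA 5 rose and 10 fell, or 27.3% beside 9.25%. In the deposited scaling 13 rose and 4 fell at 6 h, or 30.9% beside 9.34%, 14 rose and 8 fell at 24 h, or 40.0% beside 17.4%, and 5 rose and 7 fell with CTNNB1 siRNA, or 21.8% beside 6.46%. At 24 h the balance of rises and falls thus turned with the scaling. After quantile normalization their median change was 0.00, -0.02 and -0.05 in these comparisons, against -0.01, -0.01 and 0.00 over the table. The lists were drawn up with earlier results known, and nothing particular to them is read from these shares.

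In the list of sterol export and LXR targets, 4 of 19 other genes were measured, by 7 probe sets. Those called with ICG-001 or CTNNB1 siRNA after quantile normalization all belonged to 1 gene, ABCG1, the exporter that passes sterol to high-density lipoprotein. Its probe set 230913_at averaged 583 ± 7.85 with ICG-001 and 96.2 ± 13.2 with DMSO at 24 h (SD, n = 3 each), a rise of 2.37 ± 0.10 (adjusted p = 6.4e-13). At 6 h it averaged 185 ± 12.6 with ICG-001 and 63.8 ± 5.1 with DMSO, a rise of 1.34 ± 0.10 (adjusted p = 4.48e-09). All 4 ABCG1 probe sets rose at both times, by 0.73 to 1.34 at 6 h and 1.10 to 2.37 at 24 h, and the lowest of these at 6 h, 0.73 at 204567_s_at, was 1.16 as deposited. With CTNNB1 siRNA 3 of them rose, by 0.56 to 0.72, and 232081_at changed by 0.34 ± 0.14 (adjusted p = 0.163). SMPDL3A, a phosphodiesterase named after its values were seen, was called as deposited with ICG-001, at 0.30 (adjusted p = 0.0459) for 6 h and 0.61 (adjusted p = 2.76e-05) for 24 h, but not after quantile normalization, at -0.23 (adjusted p = 0.196) and 0.08 (adjusted p = 0.708).

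Of the sterol sensing list, 3 of 11 genes were measured, and after quantile normalization SREBF1 was the only one called in the 3 treatment comparisons. It averaged 460 ± 27.8 with ICG-001 and 267 ± 16.6 with DMSO at 6 h, a rise of 0.66 ± 0.07 (adjusted p = 6.68e-07). At 24 h it averaged 417 ± 22.1 with ICG-001 and 310 ± 9.2 with DMSO, a change of 0.20 ± 0.07 (adjusted p = 0.072) that passed the test in the deposited scaling at 0.41 (adjusted p = 0.000131). With CTNNB1 siRNA it changed by -0.27 ± 0.09 (adjusted p = 0.0547). SREBF2, the gene of SREBP-2, named after its values were seen, was called as deposited with ICG-001, at 0.34 (adjusted p = 0.029) for 6 h and 0.33 (adjusted p = 0.0221) for 24 h, against 0.30 (adjusted p = 0.0862) and 0.21 (adjusted p = 0.225) after quantile normalization. Of the other sterol synthesis enzymes only MVK and ERG28 were measured, 2 of 21 genes. For mevalonate kinase, MVK, probe set 215649_s_at fell by 1.58 on the log2 scale with ICG-001 at 24 h (SE 0.26, adjusted p = 0.00011), with 23.5 ± 10.8 in ICG-001 cells and 105 ± 51.5 in DMSO cells. The brighter MVK probe set 36907_at changed by -0.07 ± 0.09 there and 236686_at by 0.87 ± 0.36 (adjusted p = 0.127), so the 3 probe sets of this gene disagreed.

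Among the 5 measured sterol uptake and transfer genes, 2 fell and 0 rose with ICG-001 at each time, and 1 fell at each time as deposited. After quantile normalization 5.45% of the table fell at 6 h and 7.82% at 24 h. GRAMD1B, which carries cholesterol from the plasma membrane to the endoplasmic reticulum, was lower in all 3 comparisons. It averaged 271 ± 7.32 with ICG-001 and 822 ± 67.2 with DMSO at 24 h, a change of -1.82 ± 0.09 (adjusted p = 6.11e-12). The change was -1.39 ± 0.09 at 6 h (adjusted p = 6e-10) and -0.66 ± 0.11 with CTNNB1 siRNA (adjusted p = 0.000503). Its relative GRAMD1C rose with CTNNB1 siRNA by 0.63 ± 0.15 (adjusted p = 0.00934), and that call was lost without CTNNB1 siRNA replicate 1 (0.58, adjusted p = 0.0536). OSBPL8, a lipid exchanger at membrane contacts, changed with ICG-001 by -0.43 ± 0.12 at 6 h (adjusted p = 0.0167) and -0.49 ± 0.12 at 24 h (adjusted p = 0.00407), but as deposited by -0.19 (adjusted p = 0.504) and -0.24 (adjusted p = 0.208).

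In the list of fatty acid synthesis and desaturation, 2 of 8 probe sets rose and 1 fell with ICG-001 at 24 h, and 3 fell with CTNNB1 siRNA, or 2 as deposited. The table's shares were 7.88% risen and 7.82% fallen at 24 h, and 4.75% fallen with CTNNB1 siRNA. Both probe sets of the list that rose belonged to FADS3, of the fatty acid desaturase family. Its probe set 204257_at averaged 979 ± 66.5 with ICG-001 and 343 ± 29.3 with DMSO at 24 h, a rise of 1.24 ± 0.09 (adjusted p = 6.88e-10). FADS3 204257_at fell with CTNNB1 siRNA (-0.38 ± 0.11, adjusted p = 0.0255), while 216080_s_at was not past the test (-0.20 ± 0.11, adjusted p = 0.293). FADS2, a desaturase of polyunsaturated fatty acids, fell at 24 h (-0.50 ± 0.11, adjusted p = 0.00225) and with CTNNB1 siRNA (-0.53 ± 0.14, adjusted p = 0.0179). The siRNA call for FADS2 was lost when replicate 2 of CTNNB1 siRNA (-0.43, adjusted p = 0.132) or of control siRNA (-0.51, adjusted p = 0.0797) was dropped.

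With ICG-001 at 24 h, 3 of 9 probe sets of the activation and binding list and 3 of 10 of the oxidation list fell, and 0 rose. As deposited 3 fell and 0 rose in the first list, while in the oxidation list 2 fell and 1 rose (ANGPTL4, named after its values were seen), with a list median of 0.09 in place of -0.22. FABP4, a fatty acid carrier best known from adipocytes and macrophages, averaged 362 ± 34.9 with ICG-001 and 1180 ± 62.0 with DMSO, a change of -2.0 ± 0.12 (adjusted p = 7.54e-11). ACOX2, a peroxisomal oxidase of branched chains and bile acid precursors, changed by -1.79 ± 0.09 (adjusted p = 1.16e-11). ACSS1, the mitochondrial acetate-activating enzyme, changed by -1.28 ± 0.10 at probe set 224882_at (adjusted p = 4.12e-09). Its other probe set, 234483_at, changed by -0.19 ± 0.20 (adjusted p = 0.67) and was not past the test. The nuclear receptor gene PPARD changed by -0.81 ± 0.12 (adjusted p = 3e-05) and the acyl-CoA synthetase ACSM3 by -0.63 ± 0.12 (adjusted p = 0.00035). PDK4, which restrains pyruvate dehydrogenase, changed most with CTNNB1 siRNA, by -0.81 ± 0.07 at probe set 225207_at (adjusted p = 1.52e-07). Its other probe sets were not past the test there, with -0.22 ± 0.21 at 205960_at (adjusted p = 0.632) and 0.05 ± 0.25 at 1562321_at (adjusted p = 0.948). At 225207_at the fall with ICG-001 at 24 h, -0.45 ± 0.06, as deposited became 0.10 (adjusted p = 0.316).

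Of the lipid droplet and lipolysis list 3 of 9 probe sets rose and 0 fell with ICG-001 at 6 h, and 4 rose as deposited. After quantile normalization 4.53% of the table rose and 5.45% fell there. G0S2, an inhibitor of triglyceride lipase, averaged 4420 ± 104 with ICG-001 and 1660 ± 63.2 with DMSO at 6 h. It rose by 0.85 ± 0.06 (adjusted p = 3.79e-09), or by 1.41 in the deposited scaling. The phospholipase PNPLA8 rose at 6 h by 0.70 ± 0.07 at probe set 223982_s_at (adjusted p = 4.58e-07), or by 1.06 as deposited. LPIN2, a phosphatidate phosphatase, fell with CTNNB1 siRNA (-0.49 ± 0.07, adjusted p = 7.1e-05). With ICG-001 at 24 h LPIN2 changed by -0.25 ± 0.06 after quantile normalization and by 0.26 as deposited, both past the test, so it has no settled direction there.

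**Figure D4:**
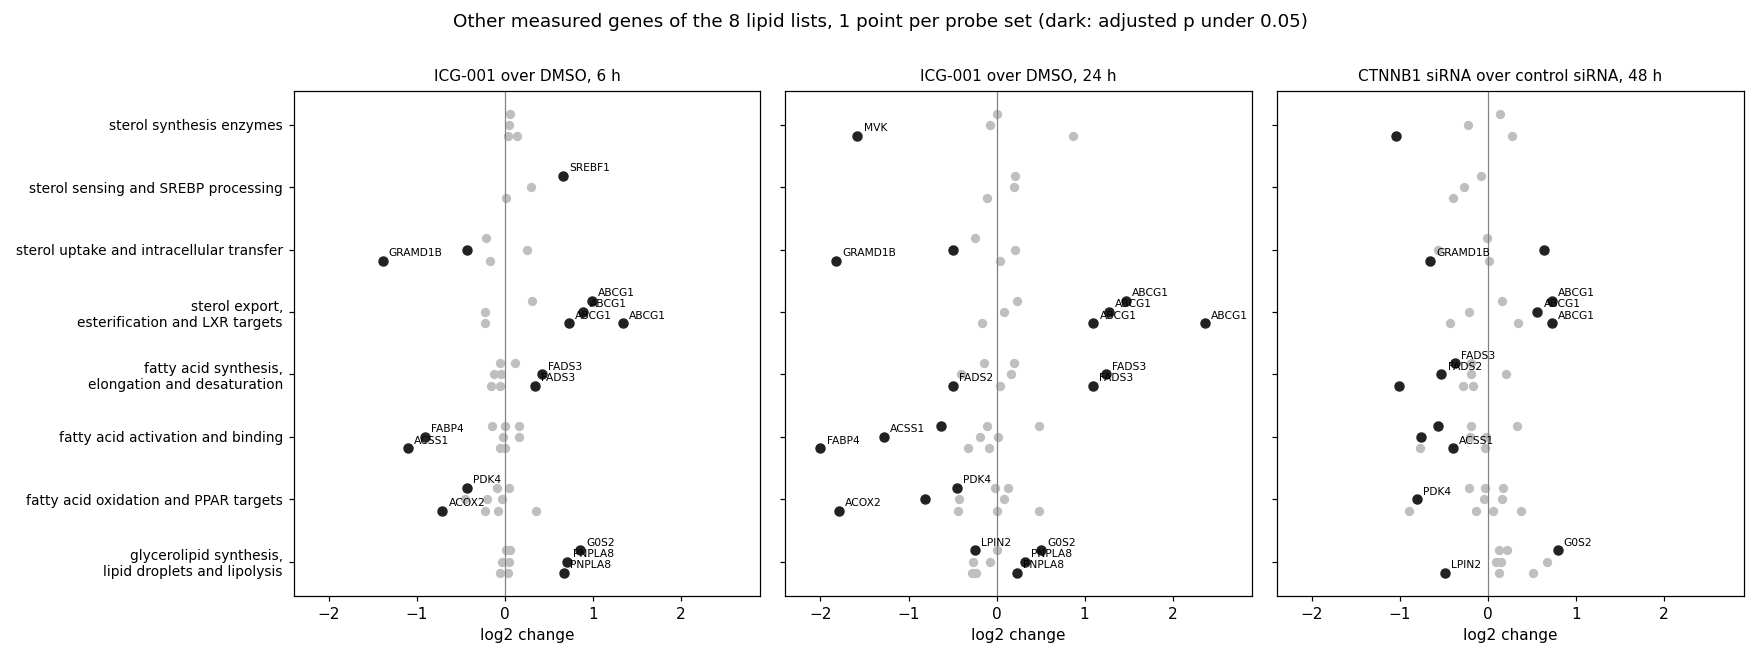
Log2 change of the 55 probe sets of the 43 other measured lipid genes, by list, with ICG-001 at 6 h, with ICG-001 at 24 h and with CTNNB1 siRNA, after quantile normalization. Dark points have an adjusted p under 0.05, and a chosen part of them carries gene names, not always those with the larger changes. ABCG1 stands on the right in all 3 panels and GRAMD1B on the left.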

How the data were processed

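RNA from AsPC-1 cells in 6 groups was read on 16 Affymetrix arrays, with biotin-labelled total RNA per the labels' protocols. Each deposited value is the linear intensity of a probe set on an array, and 1.1% were exactly 1. The steps from scanner signal to these intensities, any selection of probe sets included, were not given in the sources used here. The table holds 9554 probe sets, each with a coefficient of variation of at least 0.40, so genes that varied little are outside all counts. GEO's platform annotation gave 1 gene for 6442 probe sets, several for 252 and none for 2860, and 6432 symbols were matched to current ones.

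Computed from these intensities were log2(intensity + 16) and quantile normalization over the 16 arrays, followed by limma 3.58.1 in R 4.3.3 with 1 term per group, an intensity trend in the prior, two-sided tests and Benjamini-Hochberg adjustment over all 9554 probe sets of each comparison. The fit left 10 residual degrees of freedom and the median prior added 8.868. The fit was also run on simulated arrays with known changes, and the outcome is not reported here. No depth exists for arrays, and their number limits the precision.

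The rule for named genes took all 14 probe sets, the called genes with the largest changes of 8 lipid lists (at most 6 per list, at their largest change), and the 3 nearest genes per member by correlation. The members and lists were chosen with earlier results of these data known. Same-numbered arrays of different groups correlated at -0.0589 to 0.0904 after group means were removed, so the numbers were not taken to pair arrays. Alternatives were the deposited scaling, median centring, quantile normalization within each experiment, 1 or 64 added before log2, a filter on dim probe sets, 1 probe set per gene, no intensity trend, the arrays of 1 experiment alone, a replicate block, and leaving out each array. Promoter windows came from RefSeq (GRCh38.p14) for 8 of the 9 members. They were not used here for SQLE.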

Additional observations from a re-analysis of the deposited data

Results flagged for a closer look

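The difference between the ICG-001 effects at 24 h and at 6 h passed limma's test for 4 probe sets, which marks a drug effect that differs between the times. DHCR7 201790_s_at differed by -0.69 (adjusted p = 0.00555). STARD4 226390_at differed by -0.96 (adjusted p = 9.38e-05). The ABCA1 probe sets differed by 0.74 at 203504_s_at (adjusted p = 0.0029) and by 1.19 at 203505_at (adjusted p = 0.00016). All 4 kept their sign and call in the deposited scaling and without any 1 array, and DHCR7 alone lost its call without the intensity trend. Groups of 2 or 3 arrays are too small for a check on single outlying arrays.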

How the results depend on the processing

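In the deposited scaling 5 of the 14 probe sets were called with ICG-001 at 6 h, as with only probe sets of a group mean of at least 50, against 3. With that filter 5 were called between the DMSO groups, and 1 without the intensity trend, against 3. Over the table, calls with CTNNB1 siRNA were 535 after median centring and 374 on the 4 siRNA arrays alone, against 884. Without the trend they were 318 for the difference between the times, against 537, and 385 between the DMSO groups, against 586. On the arrays of 1 experiment the difference between drug and siRNA could not be fitted. The numbers were not taken to pair the arrays. A replicate block gave 968, 1532 and 973 calls over the table for ICG-001 at 6 h, at 24 h and CTNNB1 siRNA, against 954, 1500 and 884. Among the 14 it gave 3, 9 and 8, the same as without the block. Leaving out 1 array gave 821 to 1012, 1301 to 1585 and 671 to 996 calls over the table, and where 1 siRNA array was left in a group it was assumed to vary like the other groups.

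Among the 14, turned signs called in either scaling were those of SCD 200832_s_at with ICG-001 at 24 h, 0.17 as deposited and 0.04 median-centred, and for drug minus siRNA, 0.35 and 0.22. Its knockdown change was -0.18 in both, and 0.00 with 64 added, as quantile normalization fixes it. Other turned values were below the test: SCD 211162_x_at 0.00 and ACSL1 0.07 at 24 h as deposited, SQLE 0.01, SCD 211162_x_at 0.02 and SCD 211708_s_at 0.01 for the times' difference as deposited, STARD4 0.01 between the DMSO groups as deposited, DHCR7 0.09 for drug minus siRNA as deposited and ABCA1 203505_at 0.13 there with 1 added. ACSL4 1557419_a_at at 6 h was 0.00 median-centred and -0.14 with 1 added, and TM7SF2 and ACSL4 1557419_a_at between the ICG-001 groups were 0.00 median-centred. The cause was not tested.

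Leaving out 1 array turned further values that were below the test. With ICG-001 at 6 h ACSL4 1557419_a_at ran from -0.24 to 0.20, and at 24 h ACSL1 from -0.14 to 0.00 and SCD 211708_s_at from -0.06 to 0.23. For the times' difference SCD 211162_x_at ran from -0.08 to 0.05, SCD 211708_s_at from -0.22 to 0.07, SQLE from -0.06 to 0.03 and ACSL4 1557419_a_at from -0.04 to 0.40. Between the DMSO groups ABCA1 203505_at ran from -0.05 to 0.18, ACSL4 1557419_a_at from -0.20 to 0.04, DHCR7 from -0.12 to 0.09, INSIG1 201626_at from -0.02 to 0.07, SCD 211708_s_at from -0.26 to 0.03 and STARD4 from -0.07 to 0.02. Between the ICG-001 groups TM7SF2 ran from -0.09 to 0.15 and ACSL4 1557419_a_at from -0.14 to 0.30. For drug minus siRNA ABCA1 203505_at ran from -0.19 to 0.17 and DHCR7 from -0.19 to 0.02. Signal near background limits the dim ACSL4 probe set.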

Other observations

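Some calls of the other lipid genes rested on dim probe sets. With CTNNB1 siRNA, ERG28, whose yeast counterpart holds sterol demethylation enzymes together, averaged 5.04 ± 4.62 with CTNNB1 siRNA and 18.3 ± 0.354 with control siRNA (SD, n = 2 each). Its change was -1.05 ± 0.26 (adjusted p = 0.013), or -0.72 (adjusted p = 0.121) as deposited. HSD17B12, a reductase of fatty acid elongation, averaged 4.88 ± 4.46 with CTNNB1 siRNA and 17.6 ± 5.25 with control siRNA, a change of -1.01 ± 0.27 (adjusted p = 0.0224), or -0.69 (adjusted p = 0.161) as deposited. FABP6, the bile acid carrier of the ileum, averaged 5.73 ± 0.615 with CTNNB1 siRNA and 15.6 ± 5.61 with control siRNA, a change of -0.76 ± 0.23 (adjusted p = 0.04), or -0.53 (adjusted p = 0.226) as deposited. In a fit of the 4 siRNA arrays alone none of the 3 passed, with adjusted p of 0.286 for ERG28, 0.337 for HSD17B12 and 0.48 for FABP6. Each of the 3 calls was also lost without CTNNB1 siRNA replicate 2, with adjusted p of 0.136 for ERG28, 0.188 for HSD17B12 and 0.132 for FABP6. Other single arrays ended them too, among them control siRNA replicate 1 for HSD17B12 (-0.74, adjusted p = 0.163) and control siRNA replicate 2 for ERG28 (-1.05, adjusted p = 0.0551) and FABP6 (-0.49, adjusted p = 0.288).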
